A study of Mus musculus with 12 samples.

Results

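Adenosine signaling in the left atrium (LA) is described here through 9 genes chosen for their function: the receptors *Adora1*, *Adora2a*, *Adora2b* and *Adora3*, the ectoenzymes *Entpd1* and *Nt5e* that make adenosine, the enzymes *Adk* and *Ada* that remove it, and the transporter *Slc29a1*. All 9 were found among the 54658 gene names of the count table. RNA was sequenced from the LA of 6 iNICD mice, which carry αMHC-rtTA and tetO_NICD, and of 6 littermate controls with αMHC-rtTA alone, on a mixed background. The αMHC promoter restricts the transactivator to cardiomyocytes, which then express the Notch1 intracellular domain in the presence of doxycycline. Both groups ate doxycycline chow for 3 weeks from 2 to 3 months of age with no washout, so that the transactivator and the drug were common to all 12 mice and no library without them was compared. The controls were 4 females and 2 males, the iNICD mice 3 females and 3 males, and each LA gave its own library.

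Adenosine forms outside cells when CD39 (*Entpd1*) and CD73 (*Nt5e*) strip phosphates from ATP and AMP, and inside cells when cytosolic nucleotidases act on AMP. It leaves or enters through equilibrative transporters such as ENT1 (*Slc29a1*), is returned to AMP by adenosine kinase (*Adk*) and is deaminated to inosine by adenosine deaminase (*Ada*). In the atrium the A1 receptor (*Adora1*) couples to inhibitory G proteins and opens the GIRK potassium channel, which shortens the action potential and slows the sinus node, whereas the receptors encoded by *Adora2a* and *Adora2b* couple to stimulatory G proteins and that of *Adora3* to inhibitory ones.

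Each library held between 21432632 and 27182038 counts on genes. *Notch1*, to which reads of the transgene also map, had 108.5 to 130.8 normalized CPM (read counts scaled to a common library size) in the controls and 2975 to 4077 in iNICD LA. Control replicate 5 stood apart from the other libraries, with a TMM normalization factor of 0.863 where the others lay between 0.973 and 1.061. For several results that rest on it, though not all, the value without it is given as well. Of 8 atrial cardiomyocyte markers, 5 fell in iNICD LA (*Myl7*, *Myl4*, *Sln*, *Nppa* and *Tnnt2*), none rose, none was at 0 in any library, and their summed level was 80260 to 92990 CPM in controls and 52420 to 62800 CPM in iNICD LA. Most of the difference in the sum was that of *Nppa* (mean 24220 against 4821 CPM). The other 3 markers did not pass: *Myh6*, the most abundant, averaged 33640 and 32890 CPM (log2 fold change -0.03), and the log2 fold changes of *Actn2* and *Ryr2* were -0.12 and 0.07. No tested marker of endothelial cells (7 tested), fibroblasts (6), smooth muscle (5), macrophages (7), epicardium (5), nerve (3) or lymphocytes (1) passed edgeR's quasi-likelihood test; the endothelial *Egfl7* had an unadjusted p of 0.0086 in it and was called by DESeq2, with a log2 fold change of -0.26 (DESeq2 adjusted p = 0.0489). In bulk RNA fewer cells of a type and less RNA per cell cannot be told apart.

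*Adora1* was the only 1 of the 7 testable members that passed an adjusted p of 0.05, and its mean rose 3.94-fold. Across all 13541 genes tested with edgeR's quasi-likelihood test, 558 (4.12%) passed an adjusted p of 0.05, with 377 (2.78%) higher and 181 (1.34%) lower in iNICD LA. Both numbers moved when 1 library was left out. The number higher was 495 without control replicate 5 and 273 to 351 without each of the other libraries. The number lower was 304 without control replicate 5, and 112 and 101 without control replicates 1 and 4. Without iNICD replicates 1, 3 and 4 it was 92, 116 and 109. It was 131 to 196 without each of the remaining libraries. Of the 9 members 7 passed the expression filter, 1 rose and none fell; at an unadjusted p under 0.05, which 17.4% of all tested genes reached, *Entpd1* was added on the lower side, and DESeq2, which called 7.82% of all tested genes, also called *Adora1* and no other member. The median log2 fold change was 0.06 over the 7 members tested and -0.006 over all genes tested.

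*Adora1* lies on chromosome 1 (134199223 to 134235431, minus strand, GRCm38). Both of its promoter windows in the RefSeq table (GRCm38.p6) are shown because Notch1's intracellular domain acts on DNA through RBPJ and its targets of the HES and HEY families. Each window runs from 250 bases before a start site to 50 after it, 5′ to 3′ on the strand of the gene, and capitals mark matches to the searched words on either strand. The word for the core of the RBPJ site is TGGGAA. The E box is searched as CACGTG. The N box is searched as CACNAG, where N is any base. The TATA box is searched as TATAAA.
Adora1, upstream window, chr1:134235408-134235707, minus strand: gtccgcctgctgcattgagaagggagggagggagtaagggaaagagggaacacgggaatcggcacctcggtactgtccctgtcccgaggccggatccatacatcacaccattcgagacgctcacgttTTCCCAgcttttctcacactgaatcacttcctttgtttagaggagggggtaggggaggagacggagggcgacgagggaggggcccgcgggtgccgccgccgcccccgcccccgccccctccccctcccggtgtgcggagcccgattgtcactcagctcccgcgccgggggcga
Adora1, downstream window, chr1:134234807-134235106, minus strand: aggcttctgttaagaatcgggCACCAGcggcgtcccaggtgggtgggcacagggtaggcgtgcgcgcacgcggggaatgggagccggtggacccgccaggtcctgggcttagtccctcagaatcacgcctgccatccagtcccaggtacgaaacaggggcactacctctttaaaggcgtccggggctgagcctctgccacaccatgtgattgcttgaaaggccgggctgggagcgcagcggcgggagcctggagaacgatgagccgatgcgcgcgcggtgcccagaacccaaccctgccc

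The upstream window holds 1 RBPJ word, read on the opposite strand, and the downstream window holds 1 N box; neither holds the E box or the TATA box. None of these matches overlaps another. Among all 32851 promoter windows of this length, 25.6% hold the RBPJ word, 42.5% the N box, 7.15% the E box and 13.6% the TATA box, so that both words found are common ones. Of the members whose level did not pass the test, *Slc29a1* and *Entpd1* also have windows with the RBPJ word, and *Nt5e*, *Slc29a1* and *Entpd1* have windows with an N box. *Slc29a1* also has a window with the E box. The search was unequal between members, since *Slc29a1* has 8 windows, *Adora1*, *Entpd1* and *Adk* have 2 each, 4 members have 1 each, and *Adora2a* was not searched. A match describes the letters and does not show a site in use.

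The normalized *Adora1* level in the controls was 18.7, 44.3, 17.0, 29.3, 51.9 and 26.2 CPM (replicates 1 to 6). In iNICD LA it was 104.4, 83.0, 107.9, 192.8, 159.7 and 90.3 CPM. Every iNICD library lay above every control library, and the lowest iNICD value (83.0 CPM) was well clear of the highest control value (51.9 CPM). Groups without overlap, by a gap of any size, with the iNICD libraries higher were found for 2.58% of all genes tested, and in either direction for 3.83% (1.25% lower in iNICD LA). The mean went from 31.22 ± 14.03 CPM to 123 ± 43.5 CPM (SD, n = 6 each), a log2 fold change of 1.98 (SE 0.30, 95% interval 1.32 to 2.64, edgeR adjusted p = 0.00221). A two-sided exact permutation test of the 12 libraries gave p = 0.00216, the smallest that 6 against 6 allows. The spread was wide within each group: iNICD replicates 4 and 5 were the highest of their group, and control replicates 5 and 2 of theirs.

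The rise of *Adora1* was present in mice of each sex. Female controls had 17.0 to 44.3 CPM and female iNICD mice 83.0 to 107.9 CPM. Male controls had 26.2 to 51.9 CPM and male iNICD mice 90.3 to 192.8 CPM. Fitted on females alone (4 controls, 3 iNICD) the log2 fold change was 1.85 (edgeR adjusted p = 0.0209). On males alone (2 controls, 3 iNICD) it was of like size, 1.90, and did not pass (edgeR adjusted p = 0.532), in a fit that called 8 genes in all. Whether the change differs between the sexes was not tested.

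Exons of *Adora1* share 1162 of their 5785 bases (20.1%) with *Mybph*, a gene on the opposite strand that encodes a myosin-binding protein. *Mybph* had 2 to 26 counts in control libraries and 17 to 111 in iNICD libraries, against 412 to 1200 and 1883 to 5092 counts of *Adora1*. Whether the counting used the strand of the reads is not given in the sources used here. The methods describe featureCounts on unambiguous reads, and HTSeq in union mode. Under counting of unambiguous reads without strand, reads in the shared bases would be left out for both genes. How many reads this concerns was not tested.

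**Figure D1:**
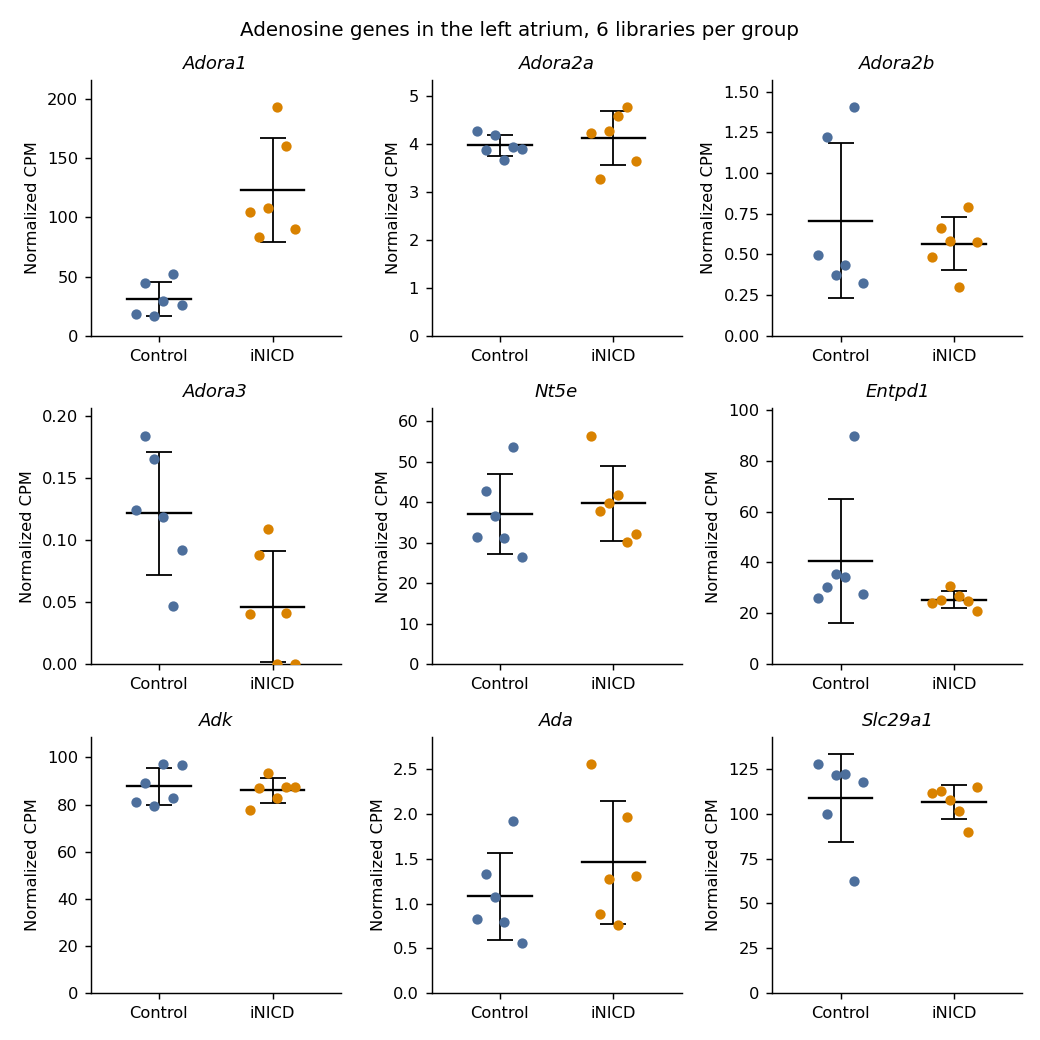
Normalized CPM (vertical axis, from 0, a scale of its own for each gene) of the 9 adenosine genes in the 6 control and 6 iNICD LA libraries. Points are libraries, the long line is the group mean and the bars are 1 SD. Only *Adora1* shows iNICD libraries (83.0 to 192.8 CPM) that all lie above the controls (17.0 to 51.9 CPM).

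The other receptors did not pass the test or were too low for it. *Adora2a* (chromosome 10, 75316877 to 75334784, plus strand), the receptor that relaxes coronary vessels, was low and even. Its level was 4.26, 3.87, 4.18, 3.67, 3.93 and 3.89 CPM in controls and 4.22, 3.26, 4.27, 4.58, 4.76 and 3.65 CPM in iNICD LA. The groups overlapped, the lowest and the highest library both being iNICD. The log2 fold change was 0.06 (SE 0.12, 95% interval -0.20 to 0.31, edgeR adjusted p = 0.841), so that an *Adora2a* change as large as that of *Adora1* lies outside the interval.

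*Adora2b* (chromosome 11, 62248984 to 62266453, plus strand), the low-affinity receptor, had 12, 33, 9, 11, 30 and 7 counts in controls and 12, 15, 16, 8, 19 and 14 in iNICD LA, under the filter of more than 1 CPM in at least 6 libraries. Control replicates 2 and 5 held the 2 highest counts, and the other 10 libraries overlapped. The mean level was 0.708 ± 0.474 CPM in controls and 0.567 ± 0.166 CPM in iNICD LA (SD, n = 6 each; two-sided exact permutation p = 0.582).

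*Adora3* (chromosome 3, 105870858 to 105908926, plus strand), known in mice as a receptor of mast cells, had 3, 5, 4, 3, 1 and 2 counts in controls and 1, 2, 3, 0, 1 and 0 in iNICD LA. A two-sided exact permutation test on the normalized levels gave an unadjusted p = 0.0195, and the adjusted p in an edgeR fit with no filter on low counts was 0.458. With at most 5 reads in any library no fold is given. Beside it, the mast cell chymase *Mcpt4* rose from 0.372 ± 0.402 to 4.93 ± 2.25 CPM (log2 fold change 3.70, SE 0.57, edgeR adjusted p = 0.0021). *Mcpt4* met the expression filter only through the iNICD libraries, at 2.84 to 8.54 CPM, where the controls had 0 to 1.16 CPM. It was 1 of 2 tested among 5 mast cell markers, whose summed level was 4.59 to 10.2 CPM in controls and 9.03 to 17.4 CPM in iNICD LA; without *Mcpt4* the sums overlapped, at 4.26 to 9.89 CPM and 6.19 to 10.8 CPM. *Kit*, the other tested marker, did not pass (log2 fold change 0.20, edgeR adjusted p = 0.645), and *Cpa3*, *Cma1* and *Tpsb2*, each at or below 0.662 CPM in every library, were not tested. *Mcpt4*, *Cma1* and *Tpsb2* were at 0 in at least 1 library. The part of mast cells in the *Adora3* counts was not tested.

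Per kilobase of gene length, on the same normalized scale, the 4 receptors summed to 4.557 to 11.02 CPM per kilobase in controls and 15.8 to 35.0 in iNICD LA. *Adora1* made up 74.0% ± 7.17 of that sum in controls (range 64.7% to 81.3%) and 92.3% ± 1.68 in iNICD LA (range 90.8% to 95.3%). *Adora2a* made up 20.4% ± 7.58 and 6.18% ± 1.14, and *Adora2b* 5.03% ± 1.66 and 1.48% ± 0.597 (SD, n = 6 each). The log2 ratio of *Adora1* to *Adora2a* per length was 1.94 ± 0.70 in controls and 3.92 ± 0.32 in iNICD LA. *Adora1* was thus the most abundant receptor transcript in each of the 12 libraries, and its share did not overlap between the groups.

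**Figure D2:**
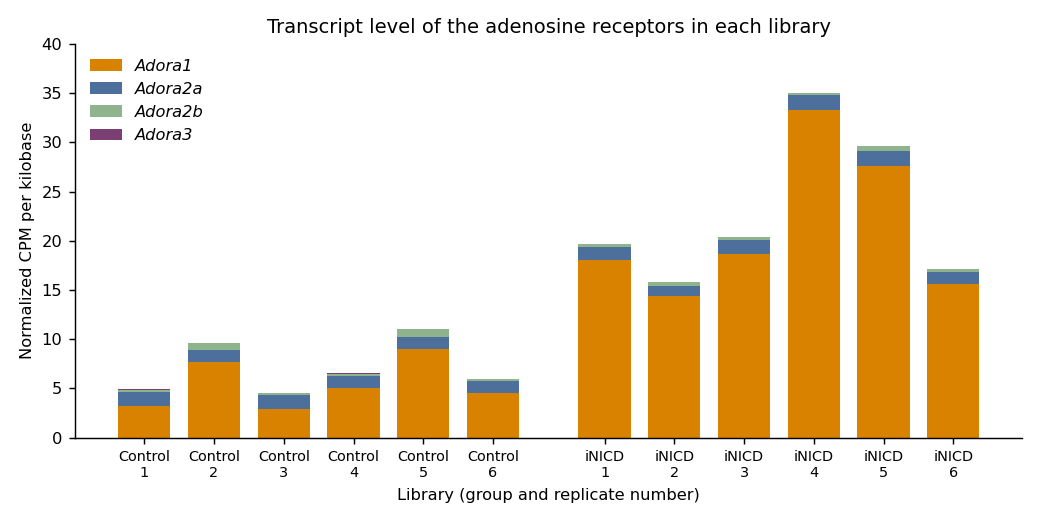
Stacked level of the adenosine receptor transcripts in each LA library, in normalized CPM per kilobase of gene length (vertical axis, from 0). The stack of each control library ends at or below 11.02 and that of each iNICD library at or above 15.8, with *Adora1* as the largest segment throughout; *Adora3* is too low to be seen in most libraries.

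The enzymes that make adenosine outside cells did not pass the test. *Nt5e* (chromosome 9, 88327197 to 88372092, plus strand), which encodes CD73, had 31.4, 42.9, 36.7, 31.1, 53.7 and 26.6 CPM in controls and 56.5, 37.9, 39.9, 41.8, 30.2 and 32.2 CPM in iNICD LA. The ranges overlapped almost completely, and the log2 fold change was 0.10 (SE 0.18, 95% interval -0.29 to 0.50, edgeR adjusted p = 0.818). Without iNICD replicate 1, the highest library, the value was -0.03, and without control replicate 5 it was 0.24 (edgeR adjusted p = 0.482).

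*Entpd1* (chromosome 19, 40612366 to 40741602, plus strand), which encodes CD39, had 26.2, 30.4, 35.4, 34.3, 89.8 and 27.8 CPM in controls and 24.3, 25.1, 30.8, 26.9, 24.9 and 20.8 CPM in iNICD LA. Control replicate 5 was more than 2-fold above every other library, and 4 of 6 iNICD libraries lay below all controls. The log2 fold change was -0.67 (SE 0.27, 95% interval -1.27 to -0.08), with an edgeR unadjusted p = 0.0288 and an adjusted p = 0.219. The two-sided exact permutation p, unadjusted, was 0.0216. Without control replicate 5 the log2 fold change was -0.28 (edgeR adjusted p = 0.163).

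The enzymes that remove adenosine did not pass either. *Adk* (chromosome 14, 21052574 to 21448569, plus strand) had 81.1, 89.1, 79.3, 97.2, 83.0 and 96.7 CPM in controls and 77.9, 87.1, 93.4, 82.9, 87.5 and 87.6 CPM in iNICD LA. Its log2 fold change was -0.03 with the narrowest interval of the 7 tested members (SE 0.07, 95% interval -0.17 to 0.12, edgeR adjusted p = 0.867). *Ada* (chromosome 2, 163726584 to 163750239, minus strand) rested on 12 to 63 counts per library. It had 0.828, 1.33, 1.08, 0.790, 1.92 and 0.555 CPM in controls and 2.56, 0.882, 1.28, 0.757, 1.96 and 1.31 CPM in iNICD LA. Those groups overlapped, and the interval was the widest of the 7 (log2 fold change 0.43, SE 0.35, 95% interval -0.32 to 1.18, edgeR adjusted p = 0.560). Its log2 fold change was 0.19 without iNICD replicate 1 and 0.66 without control replicate 5.

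*Slc29a1* (chromosome 17, 45585200 to 45599606, minus strand), which encodes ENT1, had 127.7, 99.8, 121.9, 122.0, 62.3 and 117.7 CPM in controls. In iNICD LA it had 111.6, 112.5, 107.7, 101.7, 89.7 and 115.2 CPM. Control replicate 5 was the lowest library and 4 controls were the highest. Without control replicate 5 the controls ranged from 99.8 to 127.7 CPM. Then iNICD replicate 5 was below every control, and the other iNICD libraries still lay within that range. The log2 fold change was -0.03 (SE 0.15, 95% interval -0.35 to 0.29, edgeR adjusted p = 0.940), and -0.15 without control replicate 5 (edgeR adjusted p = 0.345).

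Ordered by mean level per kilobase, the controls had *Slc29a1* (27.1 CPM per kilobase), *Adk* (10.3), *Entpd1* (7.28), *Adora1* (5.40), *Nt5e* (4.31), *Adora2a* (1.296), *Ada* (0.541), *Adora2b* (0.384) and *Adora3* (0.0327). In iNICD LA the order was *Slc29a1* (26.6 CPM per kilobase), *Adora1* (21.3), *Adk* (10.1), *Nt5e* (4.62), *Entpd1* (4.56), *Adora2a* (1.35), *Ada* (0.729), *Adora2b* (0.308) and *Adora3* (0.0125). *Adora1* stood between *Entpd1* and *Nt5e* in the controls, where its range overlapped those of both neighbours, and next to *Slc29a1* in iNICD LA, where it exceeded *Adk* in 6 of 6 libraries and overlapped *Slc29a1*, which was higher in 4 of 6. In the controls *Adk* overlapped *Entpd1* only through replicate 5, where *Entpd1* was at 16.1 CPM per kilobase, and *Ada* overlapped *Adora2b*. In iNICD LA the overlapping neighbours other than *Slc29a1* and *Adora1* were *Nt5e* with *Entpd1*, *Adora2a* with *Ada*, and *Ada* with *Adora2b*.

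Several members ranked the mice of a group alike. Control replicates 2 and 5 were the 2 highest controls for *Adora1*, *Adora2b*, *Nt5e* and *Ada*, and the 2 lowest for *Slc29a1*. In iNICD LA, replicates 4 and 5 were the 2 highest for *Adora1* and *Adora2a* and the 2 lowest for *Slc29a1*. On the log2(CPM + 1) scale *Adora1* and *Slc29a1* had r = -0.823 over the 6 controls (rho = -0.714; exact permutation p = 0.0111 and 0.136) and r = -0.790 over the 6 iNICD libraries (rho = -0.886; exact permutation p = 0.0458 and 0.0333). These were 2 of 12 relations of *Adora1* with another member, chosen after the values were seen, and none passed Benjamini-Hochberg adjustment (adjusted p = 0.133 and 0.183 for r, 0.544 and 0.200 for rho). Without the 2 libraries farthest from the median of *Adora1*, r was -0.931 and -0.710. *Adora1* with *Adora2a* had r = 0.859 (rho = 0.943, exact permutation p = 0.0389 and 0.0167, adjusted p = 0.183 and 0.200) in iNICD LA and r = -0.600 (rho = -0.543, exact permutation p = 0.217 and 0.297, adjusted p = 0.372 and 0.610) in the controls. Without the 2 libraries farthest from the median, these were 0.994 and -0.630.

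**Figure D3:**
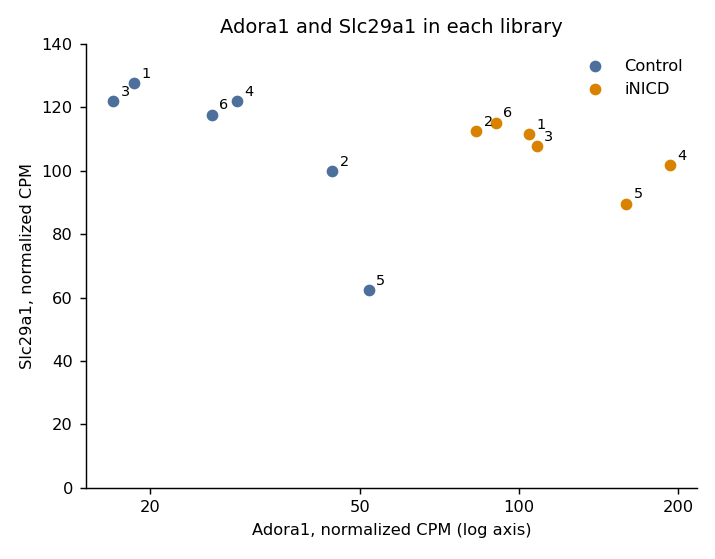
Normalized CPM of *Slc29a1* (vertical axis) against *Adora1* (horizontal axis, log scale) in the 12 LA libraries, numbered by replicate and colored by group. In each group the 2 libraries with the most *Adora1* (controls 5 and 2, iNICD 4 and 5) have the least *Slc29a1*.

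The level of the transgene differed between iNICD mice, and no relation of a tested member with it passed. Over the 6 iNICD libraries *Adora1* and *Notch1* had r = 0.209 (rho = 0.086; exact permutation p = 0.728 and 0.919). Without iNICD replicates 4 and 2, the farthest from the median of *Notch1*, r was -0.588. The relation of *Ada* with *Notch1* was the strongest of the 7 computed (r = -0.750, rho = -0.829; exact permutation p = 0.0875 and 0.0583, adjusted p = 0.612 and 0.408) and rested on those libraries, since r was 0.047 without them.

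Of the 9370 tested genes that averaged 10 CPM or more, those that followed *Adora1* most closely from mouse to mouse, by the smaller of the correlations within the controls and within iNICD LA, were *Sec22b* (r = 0.942), *Atp1b1* (0.935), *Gm12295* (0.927), *Osbpl9* (0.920) and *Nmrk2* (0.918), each over 6 libraries per group that share normalization. *Nmrk2* averaged 113.7 CPM in the controls and 3.08 CPM in iNICD LA, so that it reached the minimum level through the controls and its correlation in iNICD LA is one of low values. Over the 5 controls other than replicate 5, the correlations of these genes with *Adora1* were between 0.881 and 0.969. The genes were picked as the highest of 9370 on these same libraries, so high values follow from the choice and are no independent check. Of these 5, *Sec22b*, a vesicle trafficking protein, fell by 0.43 on the log2 scale in iNICD LA (SE 0.09, edgeR adjusted p = 0.0159), and the others did not pass. *Atp1b1*, a subunit of the sodium pump, had a log2 fold change of 0.30 (edgeR adjusted p = 0.428), and *Nmrk2*, a kinase that makes NAD precursors in muscle, one of -5.19 (edgeR adjusted p = 0.0635).

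The neighbouring purine genes were taken as 5 lists with 66 genes, of which 49 passed the expression filter, 4 rose and none fell. Of the 49, 8.16% were called, against 4.12% of all genes tested, with a median log2 fold change of 0.005 against -0.006. At an unadjusted p under 0.05 there were 7 (14.3%), against 17.4% of all genes tested. For each of the 4 that rose, every iNICD library lay above every control library, as for 2.58% of all genes tested; the genes were named for passing the same contrast, so nothing further is read from this.

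Of 17 other nucleotide-hydrolysing enzymes, 12 were tested and 2 rose (16.7%; median log2 fold change -0.004). At an unadjusted p under 0.05 there were 4, the other 2 being lower in iNICD LA: *Nt5c2* (log2 fold change -0.48, edgeR adjusted p = 0.128) and *Entpd6* (log2 fold change -0.24, edgeR adjusted p = 0.138), named after their values were seen. For *Nt5c2*, control replicate 5 was the highest library at 154.5 CPM, where the other controls had 76.1 to 109.5 CPM. Its iNICD libraries had 65.4 to 77.9 CPM, and 5 of 6 lay below all controls. *Nt5c1a* (chromosome 4, 123201504 to 123216275, plus strand), the cytosolic nucleotidase that makes adenosine from AMP in heart and skeletal muscle, had 13.5, 10.7, 16.2, 14.5, 6.65 and 17.6 CPM in controls and 24.9, 26.7, 19.2, 38.8, 28.2 and 33.2 CPM in iNICD LA. The lowest library was control replicate 5 and the highest iNICD replicate 4. Its mean rose from 13.2 ± 3.97 to 28.5 ± 6.79 CPM (SD, n = 6 each). The log2 fold change was 1.11 (SE 0.22, edgeR adjusted p = 0.0121). With the replicate number of the descriptions as a block the call was lost (edgeR adjusted p = 0.0636).

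*Nt5c3* (chromosome 6, 56882400 to 56923932, minus strand) encodes a cytosolic nucleotidase that acts mainly on pyrimidine nucleotides rather than on AMP. It had 61.1, 54.9, 67.0, 74.1, 39.6 and 75.7 CPM in controls and 103.6, 97.0, 109.9, 116.0, 105.9 and 107.3 CPM in iNICD LA. The iNICD libraries were close together and the controls more scattered, with control replicate 5 again the lowest. Its mean rose from 62.1 ± 13.5 to 106.6 ± 6.36 CPM (SD, n = 6 each; log2 fold change 0.78, SE 0.13, edgeR adjusted p = 0.0043).

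Of 17 clearance, salvage and AMP-handling enzymes, 15 were tested and none passed the quasi-likelihood test (median log2 fold change -0.09); 1 had an unadjusted p under 0.05, and DESeq2 called 1. The lowest adjusted p was that of *Ak3*, an adenylate kinase of the mitochondrial matrix that uses GTP, at 115.1 ± 10.8 CPM in controls and 133.8 ± 6.10 CPM in iNICD LA (SD, n = 6 each; log2 fold change 0.22, SE 0.07, edgeR adjusted p = 0.0956). Its iNICD libraries ranged from 126.7 to 144.9 CPM and 5 of 6 lay above the highest control, at 127.5 CPM.

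Of 9 other nucleoside transporters and ATP release channels, 5 were tested and none was called, at an unadjusted p under 0.05 or by DESeq2 (median log2 fold change -0.09). The lowest adjusted p was that of *Slc28a2*, a sodium-coupled transporter that prefers purines, at 10.5 ± 2.16 CPM in controls and 11.6 ± 1.90 CPM in iNICD LA (SD, n = 6 each; log2 fold change 0.15, edgeR adjusted p = 0.650).

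Of 9 G protein and GIRK channel genes, 7 were tested and 1 rose (14.3%; median log2 fold change 0.005). *Gnai1* (chromosome 5, 18265135 to 18360355, minus strand), an inhibitory G protein alpha subunit, had 14.2, 17.1, 14.5, 18.1, 17.3 and 17.5 CPM in controls and 26.4, 18.1, 21.4, 22.1, 30.9 and 27.5 CPM in iNICD LA. The lowest iNICD library, replicate 2, was barely above the highest control. Its mean rose from 16.4 ± 1.66 to 24.4 ± 4.70 CPM (SD, n = 6 each; log2 fold change 0.57, SE 0.12, edgeR adjusted p = 0.0206). Without control replicate 1 or iNICD replicate 1 its adjusted p was 0.0525 or 0.0526. The GIRK subunits, named after their values were seen, did not pass: *Kcnj3* (GIRK1) had a log2 fold change of -0.34 (95% interval -0.99 to 0.31, edgeR adjusted p = 0.600) and *Kcnj5* (GIRK4) one of 0.0046 (95% interval -0.21 to 0.22, edgeR adjusted p = 0.987). Without control replicate 5, *Kcnj3* was lower in iNICD LA, at -0.54 (edgeR adjusted p = 0.0325).

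Of 14 P2 receptors for ATP, ADP and UTP, 10 were tested and 1 rose (10%; median log2 fold change 0.16). *P2rx4* (chromosome 5, 122707544 to 122729738, plus strand), an ATP-gated cation channel, had 32.9, 26.6, 29.8, 30.5, 25.7 and 29.5 CPM in controls and 33.8, 35.8, 37.7, 35.8, 35.0 and 33.4 CPM in iNICD LA. The shift was small, from 29.2 ± 2.63 to 35.3 ± 1.56 CPM (SD, n = 6 each; log2 fold change 0.27, SE 0.07, edgeR adjusted p = 0.0380). When each of the 12 libraries was removed in turn, the call held in 3 fits only, with adjusted p between 0.0266 and 0.0859. It was also lost with the replicate number as a block (edgeR adjusted p = 0.0876 and 0.104 under the numbers of titles and descriptions).

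**Figure D4:**
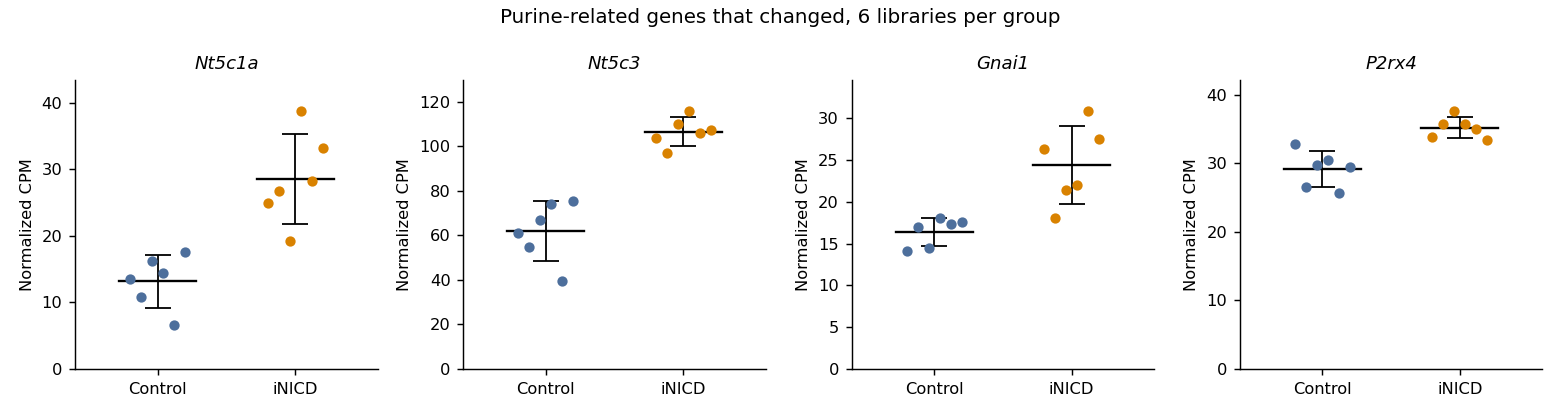
Normalized CPM (vertical axis, from 0) of the 4 purine-related genes that rose in iNICD LA. Points are libraries, the long line is the group mean and the bars are 1 SD (n = 6 each); no group of points overlaps its control, with the closest approach in *Gnai1* and *P2rx4*.

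**Figure D5:**
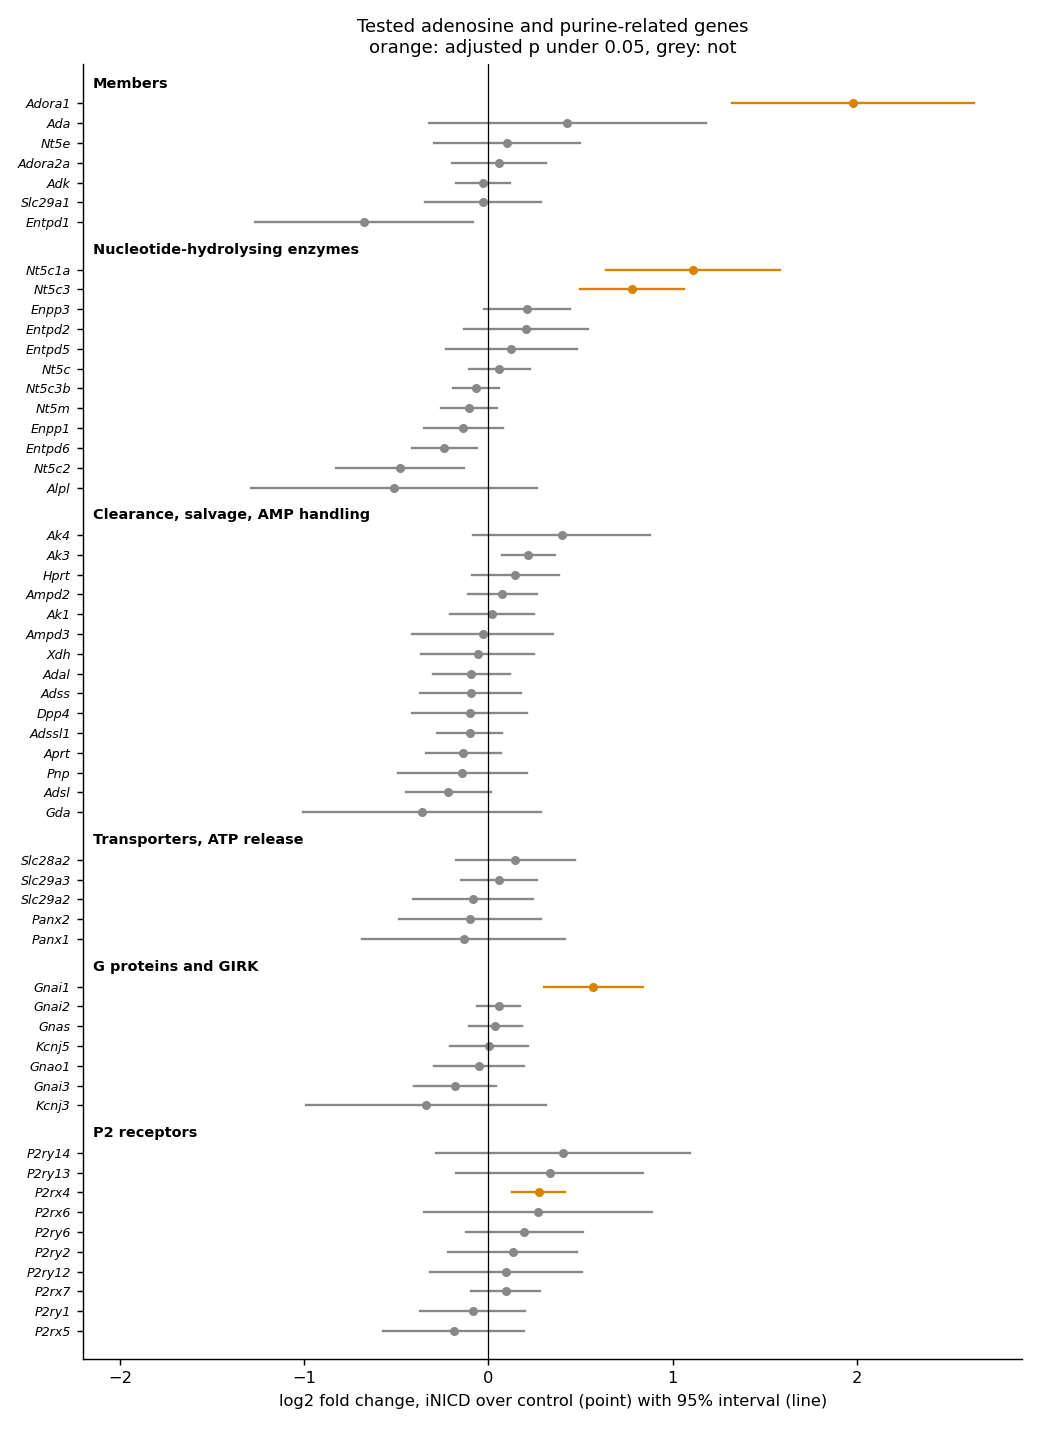
Log2 fold change of iNICD over control LA (horizontal axis) with its 95% interval for the 7 tested adenosine genes and the 49 tested genes of the 5 purine lists. Orange marks genes with an edgeR adjusted p under 0.05. *Adora1* (1.98) lies furthest to the right, and the intervals of most other genes include 0.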

How the data were processed

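Per the labels and the study's methods, RNA of each LA was depleted of ribosomal RNA and made into Illumina libraries. The authors deposited raw read counts per gene name, without normalization, and a length in bases per gene. The submitters' processing notes name cutadapt, STAR 2.4.2a, Subread featureCounts, edgeR and mm10; the methods also describe TopHat2 with HTSeq, and the table does not say which route made it. The methods call the libraries stranded, whereas the kit named in the labels (TruSeq RNA v2) does not mark strand. Groups, sex and replicate numbers came from titles and descriptions.

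The 13541 genes above 1 CPM in 6 or more libraries were compared with edgeR 4.0.16 (R 4.3.3): TMM normalization, the two-sided quasi-likelihood test, no covariates and Benjamini-Hochberg adjustment over all tested genes. Normalized CPM divide each count by its effective (TMM) library size, levels per kilobase use the deposited lengths, and standard errors and 95% intervals derive from the F statistic. Exact permutation tests used log2(CPM + 1) over 924 arrangements. Intervals are for the difference between the groups and rest on the spread between mice, each a separate animal. Libraries of a group differed by a chi-square of at least 16.7 per gene, so none was a copy of another. Tested on simulated counts for iNICD against control LA (13336 genes), edgeR recovered 189 of 200 changed genes (94.5%) with 9 false calls, DESeq2 194 with 30 and the exact test 193 with 25. The changed genes were drawn from genes above a minimum level and given folds larger than those of most genes described here. Recovery of smaller changes, or of genes at low level, was not measured.

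Positions came from GENCODE M21 (GRCm38) and promoters from RefSeq. The genes and lists were chosen with earlier results of these data known. All 9 members were named; of each purine list, the genes past the threshold or, with none, the gene of lowest adjusted p; of the markers, those past the threshold; and the 5 genes most like *Adora1*. Markers that did not pass, *Kcnj3*, *Kcnj5*, *Nt5c2* and *Entpd6* were named outside this rule, after their values were seen. Alternatives were DESeq2 1.42.0, the exact test of edgeR, other normalizations and filters, a replicate block, sex as a covariate, each sex alone, each library left out, and a pseudocount of 0.25. RA libraries were not analysed here, and 1 gene is not reported here, so that the counts of its list and of the 5 lists together leave it out.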

Additional observations from a re-analysis of the deposited data

Results flagged for a closer look

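*Entpd1* in control replicate 5 stood at 89.8 CPM, where the other controls lay between 26.2 and 35.4 CPM; its gap to the nearest of them, as a share of the range of the group, exceeded Dixon's critical value for 6 samples. It was the only such value among 28 groups examined, of which chance alone gives about 1.4. The same library had the lowest TMM factor, the lowest *Slc29a1* and the highest *Adora1*, *Adora2b*, *Nt5e* and *Ada* of the controls.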

How the results depend on the processing

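The rise of *Adora1* kept its direction in all 23 alternatives and passed in 22, the exception being males alone, where no member was called; its log2 fold change was 1.80 to 2.18 when each library was left out. *Nt5c3* also passed in 22, *Nt5c1a* in 21, *Gnai1* in 19 and *P2rx4* in 8. The 4 purine-related genes called higher became 2 with a replicate block on the description numbers, 2 in females alone and 0 in males alone, and 2 to 5 when each library was left out (2 without iNICD replicate 1); the count called lower was 0 to 1, *Kcnj3* being called without control replicate 5. Over all genes, 558 were called by the quasi-likelihood test, 1059 by DESeq2 and 8 in males alone. Members near 0 changed sign: *Adora2a* to -0.026 in females alone, *Nt5e* to -0.23 in males alone and *Slc29a1* to 0.021 with sex as a covariate and 0.17 in males alone. Leaving out each library gave 0.012 to 0.12 for *Adora2a*, -0.026 to 0.24 for *Nt5e*, -0.055 to 0.0035 for *Adk*, 0.19 to 0.66 for *Ada* and -0.15 to 0.022 for *Slc29a1*. The relation with *Notch1* went from 0.209 to -0.588 for *Adora1* and from -0.750 to 0.047 for *Ada* without the 2 libraries farthest from the median. Why these values moved was not tested.

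Replicate numbers are shared between the groups, but nothing ties equal numbers to 1 litter or day, and only 4 of 6 same-numbered pairs correlated above 0.1 under either numbering; 5 (titles) and 4 (descriptions) of 12 libraries correlated best with their own number. With the replicate block, *Slc29a1* was 0.0035 (titles) and 0.0028 (descriptions), *P2rx4* lost its call under both (adjusted p = 0.0876 and 0.104), leaving 3 of the 4 purine-related genes under the titles, and *Nt5c1a* lost its call under the descriptions (adjusted p = 0.0636). *Adora2b*, *Adora3* and *Ada* rest on 0 to 63 counts per library; the part of depth in their spread was not tested.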
